A study of Danio rerio with 6 samples.

Results

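The miR-30 family was described on a zebrafish microRNA (miRNA) array through every probe whose name starts with dre-miR-30a, dre-miR-30b, dre-miR-30c, dre-miR-30d or dre-miR-30e, whichever arm of the hairpin it reads. This gave 6 of the 218 miRNA probes on the array: miR-30a, miR-30b, miR-30c, miR-30d and miR-30e, and miR-30e*, the opposite arm of the miR-30e hairpin. The tested samples were 3 pools of hearts from adult Ekkwill zebrafish, taken 6 hours after resection of part of the heart and called regenerating here. They were set against 3 pools of hearts from uninjured adult fish of the same strain. Pooling hides the spread between single fish, and the sources used here do not give the number of hearts in a pool. In each group 2 samples carried the dye Cy3 and 1 carried Cy5.

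A miRNA is a short RNA that guides a silencing complex to messenger RNAs, mostly through pairing of its seed, bases 2 to 8 from the 5′ end. miR-30 is an old vertebrate family that is expressed in many tissues and is well represented in heart muscle. In mammals it represses connective tissue growth factor, a matrix protein of scar tissue, an activity it shares with miR-133. In zebrafish it acts on the Hedgehog receptor partner smoothened in the muscle of the embryo, and it represses the Notch ligand Dll4 in vessels. A zebrafish heart closes the wound and regrows the lost ventricle without a lasting scar.

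The target sequences given for the probes show why the first 5 are counted as a family and the last is not interchangeable with them. They are printed 5′ to 3′ with the seed in capitals.
dre-miR-30a: uGUAAACAuucccgacuggaag
dre-miR-30d: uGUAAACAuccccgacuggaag
dre-miR-30e: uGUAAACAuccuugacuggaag
dre-miR-30b: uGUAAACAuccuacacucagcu
dre-miR-30c: uGUAAACAuccuacacucucag
dre-miR-30e*: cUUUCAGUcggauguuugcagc
The first 5 share the seed GUAAACA, which no other probe of the array had, and the first 9 bases. They are identical at 13 of 22 positions. The seed of miR-30e* is UUUCAGU, also held by no other probe. The family falls into a pair of subgroups by its remaining bases. One holds miR-30a, miR-30d and miR-30e, which end alike: counted from 1 at the 5′ end, miR-30a differs from miR-30d by C10U alone, and miR-30e differs from miR-30d by C12U and C13U. The other holds miR-30b and miR-30c, which are identical over their first 18 bases and differ by U19A, C20G, A21C and G22U, with the miR-30c base first. Between the subgroups miR-30e and miR-30c stand at an edit distance of 5, and miR-30d and miR-30b at 8. No probe outside the family came closer than an edit distance of 8 to any of the 6 targets. Targets that differ by few bases can share part of their signal on an array. How far miR-30a, miR-30d and miR-30e did so was not tested, nor how far miR-30b and miR-30c did.

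In the RefSeq annotation of the GRCz12tu assembly, 5 miR-30 genes could be matched by name. The miR-30b and miR-30d genes neighbour each other with no annotated gene between them, and both lie within the span of the protein-coding gene zfat. The miR-30c gene and the miR-30e-2 gene also neighbour each other, with none between. The miR-30a gene stands apart from both pairs. Each genomic pair therefore joins members of different sequence subgroups.

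The arrays themselves differed in background and in the amount of signal. The median empty spot read 384, 560 and 54.1 in regenerating replicates 1, 2 and 3, and 179, 43.0 and 507 in uninjured replicates 1, 2 and 3. Detection meant a mean over local background of more than 3 SDs of the empty spots. By that rule 217 of the 218 probes were detected in regenerating replicate 1, 110 and 124 in the other regenerating samples and 132 to 144 in the uninjured ones, so detection in regenerating replicate 1 says little. The 138 probes detected in at least 3 of 6 samples were tested. Checked against its markers, the labelled tissue held the heart muscle miRNAs: the 4 on the array (miR-1, miR-133a, miR-133b and miR-499) were detected in all 6 samples. Their summed background-subtracted intensity ran from 62029 to 106433 in the regenerating samples and from 106165 to 110502 in the uninjured ones. Of the 5 liver, gut and pancreas miRNAs, 0 were detected in every sample, with sums of 44.9 to 813 in the regenerating samples and 62.7 to 185 in the uninjured ones. The skeletal muscle miRNA miR-206 had intensities of 146 to 2702 in the regenerating samples, against 27.6 to 38.5 in the uninjured ones. The 2 smooth muscle miRNAs summed to 8432 to 17370 in the regenerating samples, against 18151 to 18850 in the uninjured ones. The ranges did not overlap for miR-206 or for smooth muscle, and did for the other cell types checked. Such intensities were not scaled between arrays, which differed in the amount of signal. After normalization miR-206 and miR-145 of smooth muscle lay higher in all regenerating samples, by log2 changes of 2.47 and 0.44. miR-143 of smooth muscle overlapped, at -0.19. limma called none of them (adjusted p = 0.115, 0.181 and 0.538). Single markers in lists whose sums overlapped also separated. miR-223 of leukocytes lay higher in all regenerating samples, at 1.16, while miR-150 and miR-155 overlapped at -0.038 and 0.073. miR-133a of heart muscle and miR-192 of the gut list lay higher at 0.28 and 0.52, and miR-216a lay lower at -0.20. limma called none of miR-223, miR-133a, miR-192 and miR-216a (adjusted p = 0.131, 0.294, 0.220 and 0.462). Of the 138 tested probes 23.9% had groups without overlap after normalization. Of the markers, limma called miR-129, of brain, at a log2 change of 1.28 and miR-200b, of epithelium, at -0.81 (adjusted p = 0.00870 and 0.0352). The lists were not uniform. Of the other brain markers miR-128 stood at 0.088 (limma adjusted p = 0.785), and miR-9 and miR-124 were not tested. Among the other tested epithelial markers miR-203b stood at 0.46. There miR-200a, miR-200c, miR-141 and miR-429 stood at -0.42, -0.68, -0.28 and -0.25. The part of other cell types in the miR-30 values was not tested. In pooled tissue, fewer cells of a type and less RNA per cell cannot be told apart.

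All 6 miR-30 probes were detected in all 6 samples. Unnormalized, their spots averaged from 6.10 times the local background (miR-30a in regenerating replicate 2) to 728 times (miR-30c in uninjured replicate 2). The 12 spots of a probe on an array differed by a coefficient of variation of 1.33% to 11.2%. These were bright probes on every array. Out of 218 probes, ordered by intensity within each array, miR-30c lay at rank 5 to 8, miR-30b at 16 to 18 and miR-30d at 28 to 30. The ranks of miR-30e, miR-30e* and miR-30a were 35 to 52, 36 to 48 and 40 to 54. A rank reflects how well a probe binds as well as how much RNA there is, so this order is not an order of abundance between members.

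The levels below are normalized log2 intensities, after background correction and quantile normalization, which gives a probe of the same rank the same value on every array. miR-30c, of the subgroup it forms with miR-30b, read 14.67, 14.83 and 14.73 in regenerating replicates 1 to 3, against 14.61, 14.61 and 14.83 in uninjured replicates 1 to 3. Its partner miR-30b read 14.08, 14.01 and 14.01 in the regenerating samples and 14.01, 14.08 and 14.17 in the uninjured ones. The groups overlapped for both. miR-30d, whose gene neighbours that of miR-30b, read 13.11, 13.26 and 13.19 in the regenerating hearts, against 13.11, 13.26 and 13.26 in the uninjured hearts. These 3 members spanned no more than 0.21 log2 units over all 6 samples.

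The other 3 probes moved over a wider range. miR-30a read 12.22, 12.10 and 12.52 in regenerating replicates 1 to 3 and 11.99, 11.92 and 12.55 in uninjured replicates 1 to 3. Replicate 3 was the high sample in both groups, which overlapped. miR-30e read 12.06, 12.67 and 12.72 after amputation, against 12.72, 12.72 and 12.79 without injury. Here regenerating replicate 1 lay well below the other 5 samples, and the highest regenerating value equalled the lowest uninjured one. The opposite arm, miR-30e*, read 12.67, 12.40 and 12.50 in the regenerating samples and 12.67, 12.77 and 12.29 in the uninjured ones, with overlapping groups. It was not low in regenerating replicate 1, the sample in which miR-30e was lowest.

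**Figure D1:**
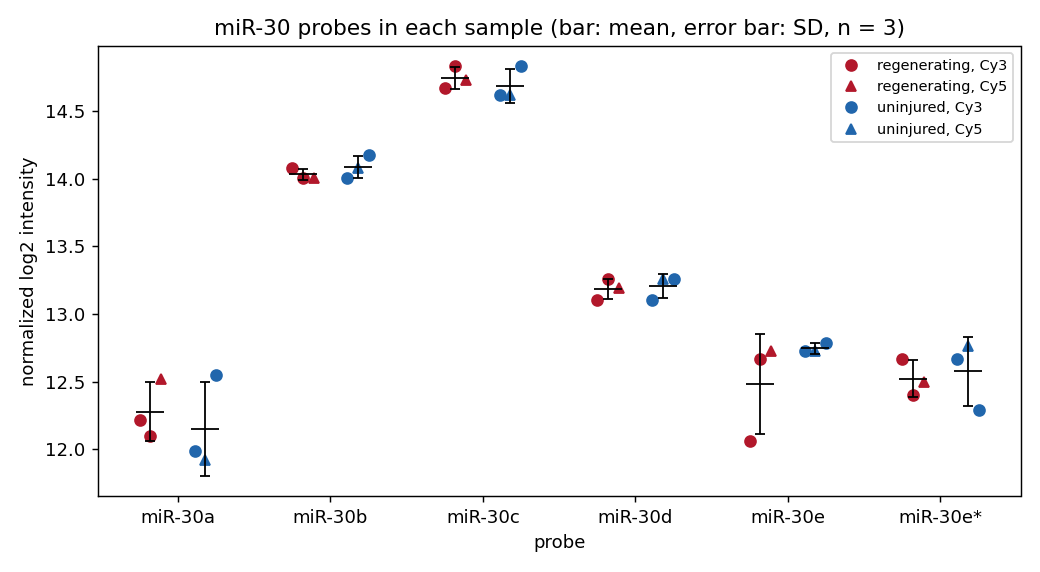
Normalized log2 intensity (vertical axis) of the 6 miR-30 probes in each regenerating and uninjured sample, with horizontal bars for the mean and error bars for the SD of 3 samples; circles are Cy3 and triangles Cy5 samples. For miR-30b, miR-30c and miR-30d the samples of each probe lie close to one another, miR-30a spreads within both groups, and 1 regenerating sample of miR-30e lies at 12.06 below the rest.

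The comparison between groups asks whether the family differs in the first hours after the injury. With quantile normalization no member passed. limma with a term for dye, with Benjamini-Hochberg adjustment over all 138 tested probes and a threshold of 0.05, called 0 of the 6 miR-30 probes. Over all tested probes 5 were called, or 3.62%. An unadjusted p below 0.05 was found for 0 of the 6, against 28 of the 138 (20.3%), and groups without overlap for 0 of the 6, against 33 of the 138 (23.9%). Against backgrounds of this size, counts of 0 among 6 do not set the family apart. The 95% confidence intervals of the changes say what sizes of change the samples allow.

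For miR-30b, miR-30c and miR-30d these intervals were narrow. The mean of miR-30d was 13.19 ± 0.076 in regenerating hearts and 13.21 ± 0.087 in uninjured hearts (SD, n = 3 each). The log2 change was -0.021 (SE 0.13) with an interval of -0.33 to 0.29. As a ratio this allows from 0.793 to 1.22 times the uninjured level. miR-30b stood at 14.03 ± 0.042 in regenerating hearts against 14.09 ± 0.082 in uninjured hearts (SD, n = 3 each), a change of -0.055 (SE 0.12), and its interval of -0.36 to 0.25 allows from 0.780 to 1.19 times. miR-30c, at 14.74 ± 0.082 in regenerating hearts against 14.69 ± 0.12 in uninjured hearts (SD, n = 3 each), changed by 0.056 (SE 0.13), and its interval of -0.27 to 0.39 allows from 0.827 to 1.31 times. With this scaling a doubling or a halving of these 3 members lay outside the intervals. The limma adjusted p was 0.930 for miR-30d and 0.831 for both miR-30b and miR-30c.

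For the other 3 the intervals were wider. miR-30a averaged 12.28 ± 0.22 in regenerating hearts and 12.15 ± 0.35 in uninjured hearts (SD, n = 3 each). Its log2 change was 0.13 (SE 0.23) with an interval of -0.44 to 0.70 (limma adjusted p = 0.800). miR-30e had the largest size of change in the family, at 12.48 ± 0.37 in regenerating hearts against 12.74 ± 0.038 in uninjured hearts (SD, n = 3 each). Its change was -0.26 (SE 0.20) with an interval of -0.77 to 0.24, or 0.588 to 1.18 times (limma adjusted p = 0.538). With quantile normalization this change rested on 1 sample: without regenerating replicate 1 it was -0.050. miR-30e* stood at 12.52 ± 0.14 in regenerating hearts against 12.57 ± 0.25 in uninjured hearts (SD, n = 3 each), with a change of -0.054 (SE 0.17), an interval of -0.48 to 0.38 and a limma adjusted p of 0.876.

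As a family the 6 probes had a median log2 change of -0.037, against -0.052 over the 138 tested probes, with 2 above 0 and 4 below. The median size of change, without sign, was 0.056 for the family and 0.24 for all tested probes. By size of change, 6 of the 138 tested probes moved less than miR-30d, 16 less than miR-30e*, 17 less than miR-30b and 19 less than miR-30c. More probes moved less than miR-30a (45) or miR-30e (74). With quantile normalization the replicate spread followed a similar division. The within-group SD pooled over both groups was 0.065 for miR-30b, 0.081 for miR-30d and 0.10 for miR-30c, and 6, 10 and 27 of the 138 probes had a smaller one. It was 0.20 for miR-30e*, 0.26 for miR-30e and 0.29 for miR-30a, where the median over all tested probes was 0.19. These counts are descriptions. The 3 members of least spread were also the brightest of the family on every array, and the part of brightness in their spread was not tested.

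**Figure D2:**
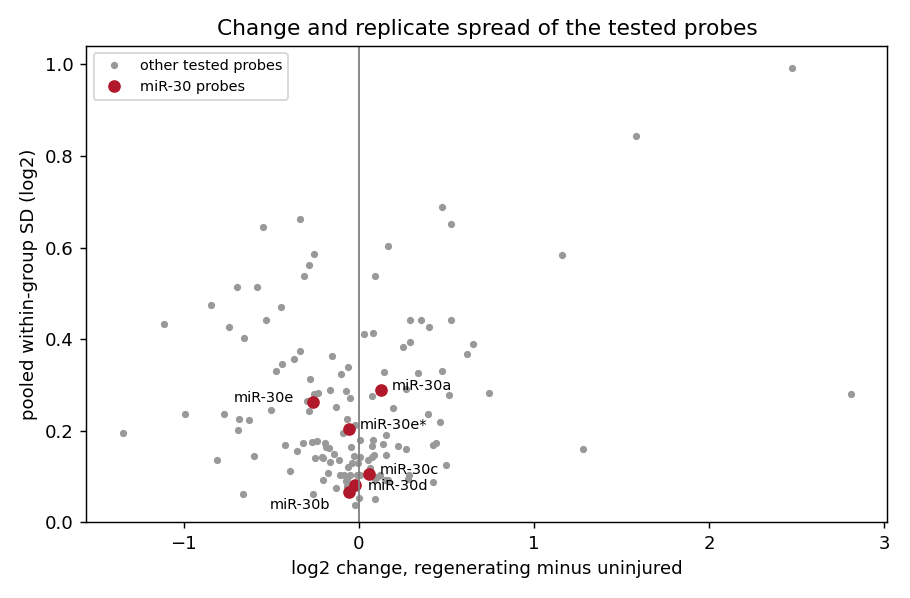
Log2 change, regenerating minus uninjured (horizontal axis), against the pooled within-group SD (vertical axis) for the 138 tested probes, with the 6 miR-30 probes in red. miR-30b, miR-30c and miR-30d sit near 0 on the change axis at SDs of 0.065, 0.10 and 0.081, and miR-30a and miR-30e have SDs of 0.29 and 0.26, above the median of 0.19.

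Whether the family read flat depended on the scaling between arrays. Scaling each array by 1 factor kept the members' distance to the median probe fixed, but moved that median: it stood at 0.13 with 75th percentile scaling, 0.36 with median scaling and -0.93 with scaling to the 16 added calibration probes that were above background on every array. The sources used here do not give the amounts of calibration sequence. The ratio of mean miRNA intensity to these calibration probes was 2.03, 0.809 and 0.519 in regenerating replicates 1, 2 and 3, and 2.16, 2.47 and 1.79 in uninjured replicates 1, 2 and 3. The family median was -0.15, 0.077 and -1.21 in these fits, each 0.28 below the median of all tested probes, where with quantile normalization it was 0.015 above it. Less that median, miR-30b and miR-30c stood at -0.0045 and 0.040, miR-30d and miR-30a at -0.27 and -0.30, and miR-30e* and miR-30e at -0.56 and -0.71. limma called 0 members in these fits. Over the 138 tested probes it called 5 with 75th percentile scaling, 7 with median scaling and 16 with scaling to the calibration probes. The smallest limma adjusted p of a member was 0.0540, for miR-30e with scaling to the calibration probes. With that scaling 3 members had an unadjusted limma p below 0.05, and with cyclic loess 1 had. The share of all tested probes with such an unadjusted p was not counted there. With scaling to the calibration probes every member had the same SE, 0.61, so eBayes used 1 variance for them. The p-values of that fit treat the errors of the probes as independent, though an array factor moves all probes of an array together. They are given as description only. With 75th percentile scaling the SEs of the change were 0.29, 0.29 and 0.27 for miR-30b, miR-30c and miR-30d. For miR-30a, miR-30e and miR-30e* they were 0.30, 0.28 and 0.30, without the division of the quantile fit. In the authors' values they were 0.18, 0.15 and 0.15, against 0.23, 0.19 and 0.20.

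The sign of a member's change was not settled for most of the family. Of the 22 alternatives, which include leaving out each sample, 6 left the members' log2 changes as they were. Leaving out either Cy5 sample gave the same changes as the Cy3 samples only. Over the 14 alternatives with distinct changes, miR-30a was above 0 in 10 and below in 4, miR-30b above in 5 and below in 9, and miR-30c above in 13 and below in 1, the scaling to calibration probes. miR-30d was above 0 in 3, below in 10 and at 0 in 1, and miR-30e* above in 2 and below in 12. miR-30e was below 0 in all 14, from -0.050 to -1.64, and passed the limma threshold in 0 of the 22.

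**Figure D3:**
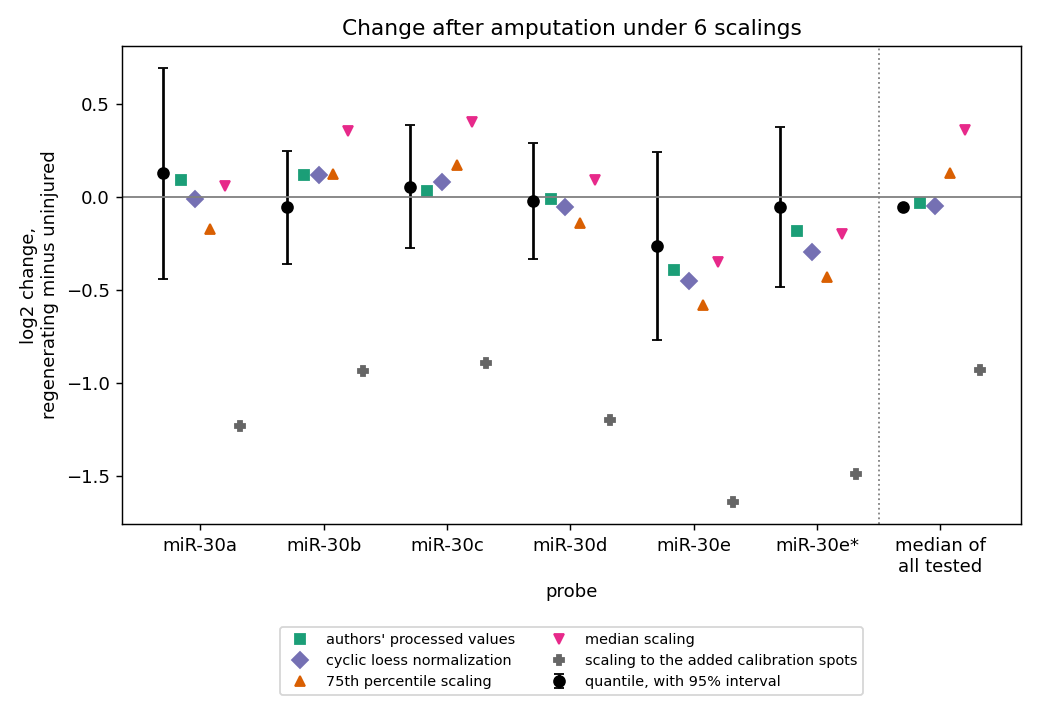
Log2 change, regenerating minus uninjured (vertical axis), of each miR-30 probe and of the median tested probe under 6 scalings, with the 95% interval for quantile normalization. miR-30e lies below 0 under each, and every member lies between -0.89 and -1.64 with scaling to the calibration probes, where the median probe lies at -0.93.

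The authors' processed intensities are linear values, and the sources used here do not give the method behind them. miR-30d read 7848, 7676 and 7383 in regenerating replicates 1 to 3, against 7381, 8027 and 7664 in uninjured replicates 1 to 3. miR-30c averaged 22207 ± 467 in regenerating hearts and 21718 ± 1421 in uninjured hearts (SD, n = 3 each), a ratio of 1.02. miR-30b averaged 14547 ± 548 in regenerating hearts against 13544 ± 2366 in uninjured hearts, a ratio of 1.07, with its uninjured samples from 11328 to 16037. The groups overlapped for these 3 members, as they did for miR-30a and miR-30e*.

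miR-30e was the 1 member of 6 whose groups did not overlap in the authors' values. It read 3497, 4874 and 5232 in regenerating replicates 1 to 3, against 5669, 5933 and 6055 in uninjured replicates 1 to 3. All 3 regenerating samples lay below all uninjured ones, with a ratio of means of 0.770. Of the 138 tested probes 25.4% did not overlap in these values, and 15.2% lay lower in all regenerating samples, so 1 of 6 is near the background. limma on these values gave miR-30e a log2 change of -0.39 (SE 0.19, adjusted p = 0.267).

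Differences between members on the same array do not depend on a factor that scales the whole array. They can still depend on differences between arrays that vary with intensity, and that part was not tested. Of the 15 pairs among the 6 probes, 3 had groups that did not overlap on background-corrected log2 values without scaling between arrays, and all 3 were pairs with miR-30e. On each array miR-30c exceeded miR-30e by 2.45, 2.50 and 2.37 log2 units in regenerating replicates 1 to 3, against 1.56, 1.69 and 1.83 in uninjured replicates 1 to 3. The mean difference was 2.44 ± 0.068 in regenerating hearts and 1.69 ± 0.13 in uninjured hearts (SD, n = 3 each), a shift of 0.75. Within the Cy3 samples the shift was 0.78, and between the Cy5 samples, 1 in each group, it was 0.68. This was the largest of the 15 shifts on this scale. Both targets have a GC content of 40.9%, and the part of GC content in the shifts was not tested.

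The difference of miR-30b to miR-30e was 1.91, 1.73 and 1.73 in regenerating replicates 1 to 3, against 0.86, 1.06 and 1.34 in uninjured replicates 1 to 3, a shift of 0.71. That of miR-30d to miR-30e was 1.03, 0.72 and 0.55 in the regenerating samples, against 0.31, 0.37 and 0.30 in the uninjured ones, a shift of 0.44. Within Cy3 and between the Cy5 samples the shifts were 0.72 and 0.67 for miR-30b. They were 0.58 and 0.18 for miR-30d, whose target has a GC content of 50%. For each of the 3 pairs the two-sided exact permutation test gave p = 0.1, the smallest that 3 samples against 3 allow, and 0.3 after Benjamini-Hochberg adjustment over the 15 pairs. Groups that do not overlap always give this smallest p, so the test adds nothing to the lack of overlap. The 3 pairs share miR-30e and are not independent. The other 12 pairs overlapped. miR-30e* minus miR-30e, the arms of 1 hairpin, was 0.59, -0.28 and -0.26 in the regenerating samples and -0.024, 0.055 and -0.43 in the uninjured ones, a shift of 0.15 (exact permutation p = 0.8). miR-30b minus miR-30d, whose genes neighbour each other, shifted by 0.26 with overlapping groups (exact permutation p = 0.3).

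These shifts were not large for this array. Among the 9453 pairs of tested probes 36.6% did not overlap on the same scale, so 3 of 15 is below the background, and 44.9% of pairs shifted by at least as much as miR-30c and miR-30e. In the authors' processed values the same 3 pairs did not overlap, where 26.5% of all pairs did not, and the shift was 0.43 for miR-30c against miR-30e and 0.51 for miR-30b against miR-30e. With quantile normalization it was 0.32, and 0 of the 15 pairs were without overlap, where 29% of all pairs were.

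**Figure D4:**
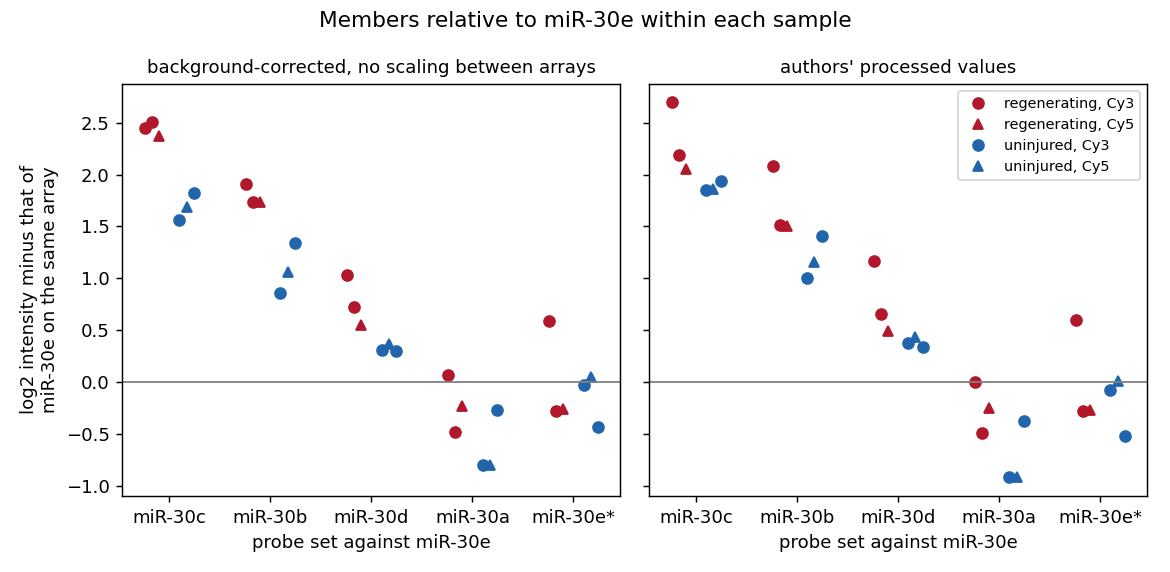
Log2 intensity of 5 miR-30 probes minus that of miR-30e on the same array (vertical axis), in each regenerating and uninjured sample, without scaling between arrays (left) and in the authors' processed values (right). For miR-30c, miR-30b and miR-30d all regenerating samples lie above all uninjured ones in both panels, while miR-30a and miR-30e* overlap.

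Among the tested probes outside the family, those whose profile over the 6 samples lay nearest to the mean of the 5 seed-sharing members were miR-125b, miR-129* and miR-125c. Their root mean square differences on centred normalized log2 values were 0.031, 0.059 and 0.070, where the median over the 132 other tested probes was 0.26. Across the 6 samples the mean of the 5 members ran only from 13.22 in regenerating replicate 1 to 13.52 in uninjured replicate 3, so likeness here means a similarly flat profile. miR-129* was detected in 4 of the 6 samples and read 6.82 to 7.06, a dim probe beside the family. Within the family, Pearson's r over the 6 samples, which share 1 normalization, ran from -0.96 for miR-30c with miR-30e* to 0.63 for miR-30a with miR-30c.

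Of 10 miRNAs that act on matrix genes in mammals or are tied to fibrosis, as miR-30 is, 2 fell and 0 rose in limma. Over all tested probes 2.17% fell. The 10 were chosen with earlier results of these data known, so the counts do not test the list against that share. The 2 that fell were miR-29a and miR-29b, repressors of collagens, with log2 changes of -0.66 and -1.35 (limma adjusted p = 0.0494 and 0.0127). In limma 0 probes of the array fell with 75th percentile or median scaling, an eBayes trend, the replicate number as a block, or Cy3 samples only. Also 0 fell when regenerating replicate 2 or 3, or uninjured replicate 1 or 2, was left out. miR-133a and miR-133b, which share with miR-30 the repression of connective tissue growth factor, stood at 0.28 and 0.20 (adjusted p = 0.294 and 0.570), and miR-133c stood at 1.58 (adjusted p = 0.220). The median of the 10 was -0.063, with 5 above 0 and 5 below.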

How the data were processed

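Per the file headers, the deposited files give for each of 3968 spots a mean intensity and its spread, linear and with no background subtracted; the sources used here do not name the scanner. Per the labels' protocols a service provider isolated small RNA, added a poly(A) tail and a tag, and stained with Cy3 or Cy5. A second deposited table holds the authors' processed intensity per probe. Local background was the median of the 16 nearest of 1060 empty spots. limma 3.58.1 in R 4.3.3 corrected it (normexp, offset 50); log2 values were averaged over 12 spots and quantile normalized over 218 probes. lmFit and eBayes compared regenerating with uninjured samples with a dye term. The steps were run on simulated spots whose arrays differed less in signal than these arrays, so that run says nothing on the scaling. The limma p-values and intervals rest on the spread between the 3 pools of a group, which the series design calls biological replicates. eBayes drew each probe's variance toward that of all tested probes, and with scaling to the calibration probes it gave every member the same SE, 0.61. For miR-30b the SE was 0.12, and 0.082 with no detection filter. The number of arrays limits the precision. For the authors' values log2(value + 50) was fitted. Named were all miR-30 probes, the 3 nearest profiles and list members past the threshold or in question. Alternatives covered background, normalization, detection, spots, dye, blocks, trend, GC content and each sample left out. The members, lists and alternatives were chosen with earlier results of these data known, and the within-array pairs after seeing the data.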

Additional observations from a re-analysis of the deposited data

How the results depend on the processing

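The 22 alternatives changed 1 choice each, and miR-30 probes past the limma threshold numbered 0 in each. With the dye term, leaving out either Cy5 sample (regenerating replicate 3 or uninjured replicate 2) is the same fit as the Cy3 samples only. The 5 probes called over the whole array became 16 with scaling to the calibration probes, where the p-values treat errors shared by an array as independent. They became 3 with an eBayes trend, 3 with GC correction and 0 with the Cy3 samples only. A block of uninjured replicate 2 and regenerating replicate 1 gave 9. Earlier results of these data pointed to this pair, and the sample labels used here do not give it as a batch. Leaving out 1 sample gave 0 to 33. The count was 0 without regenerating replicate 3 or uninjured replicate 2, and 1 without regenerating replicate 2 or uninjured replicate 1. Without regenerating replicate 1 it was 33. Replicate numbers were not taken as pairs. Deviations of same-numbered samples correlated at 0.14, -0.45 and 0.37, and those of differently numbered samples at -0.40 to 0.50. The 0.50 was that of regenerating replicate 1 with uninjured replicate 2, the pair taken as a block above. So few samples cannot settle whether any samples were paired. With the replicate number as a block 1 probe was called and 0 miR-30 probes. The family median ran from -0.033 to 0.0031 with 1 sample left out and was -1.21 with scaling to the calibration probes. Signs turned, without a call, for miR-30a at -0.0091 (cyclic loess), -0.17 (75th percentile), -1.23 (calibration probes) and -0.11 (Cy3 only); for miR-30b at 0.12 (cyclic loess and the authors' values), 0.13 (75th percentile), 0.36 (median) and 0.091 (GC correction); for miR-30c at -0.89 (calibration probes); for miR-30d at 0.093 (median); and for miR-30e* at 0.054 (Cy3 only). With 1 sample left out, miR-30a ran from -0.11 to 0.36, miR-30d from -0.069 to 0.017 and miR-30e* from -0.19 to 0.054. The within-array shift of miR-30c against miR-30e, 0.75, was 0.53 with cyclic loess, 0.32 with quantile normalization and 0.43 in the authors' values, and 0.69 to 0.82 with 1 sample left out. The cause of these shifts was not tested.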
